A study of Bos taurus with 8 samples.

Results

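The 8 genes described here are GATA4, GATA6, SOX17, FOXA1, FOXA2, HNF4A and HHEX, which encode transcription factors, and PDGFRA, which encodes the alpha receptor for platelet-derived growth factor. They were chosen by name as factors of the hypoblast, with earlier results of these data known. All 8 were found among the 15267 genes of the deposited table, and all 8 were among the 11897 genes kept for testing, which had a value of at least 1 CPM (reads of a gene scaled to a common library total) in at least 4 samples. The FLI group held 4 samples from bovine embryos developed in vitro with addition of fibroblast growth factor 2 (FGF2), leukaemia inhibitory factor (LIF) and insulin-like growth factor 1 (IGF1), titled FLI 20, 3M, 4M and 50. The control group held 4 samples without that addition, titled control 10, 20, 3M and 4M. Each sample was the RNA of a conceptus-half at day 15, when the bovine conceptus is filamentous, and the series title places slow-rate freezing before elongation. The labels give no breed, sex, dose or recipient. No label says that the samples came from separate conceptuses, so p-values measure the spread between these samples, which may be technical.

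The hypoblast, or primitive endoderm, is the cell layer that lines the inside of the blastocyst cavity and builds the inner layer of the yolk sac. In mouse embryos GATA6 acts early in its specification, and PDGFRA appears on the surface of its precursors and receives PDGFA from neighbouring cells. SOX17, GATA4, HNF4A and the FOXA factors follow as the layer matures into an epithelium that lays down basement membrane and secretes apolipoproteins. In the elongating bovine conceptus this layer extends under the trophectoderm, which makes up most of the tissue. None of these genes belongs to the hypoblast alone: PDGFRA is also a gene of mesoderm, and HHEX of endothelial and blood precursors. In RNA of a whole tissue, fewer cells of a type and less RNA per cell cannot be told apart.

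Sequencing depth was similar across samples, with 108851495 to 152570016 reads assigned to genes per library. The 8 genes were covered by 118 reads (HHEX) to 16972 reads (HNF4A) per library, and counting error at the lowest count of a gene was 1.73% (GATA6) to 9.21% (HHEX). These errors cover counting alone. No exon of the 8 genes shared bases with another gene of the table. The endometrial genes PGR, ESR1 and SERPINA14 were at most 1.68 CPM in any sample. ESR1 and SERPINA14 were highest in control 10, at 1.68 and 1.24 CPM, and PGR in control 20, at 1.25 CPM. Of 12 endometrial markers 8 were in the table and 3 tested, and of 10 blood markers 2 were in the table and tested; these were all higher in FLI, with 0 at an unadjusted limma p under 0.05. Of the endometrial markers WNT7A had 13.0 ± 2.24 CPM in FLI and 7.10 ± 4.10 CPM in control (SD, n = 4 each, limma adjusted p = 0.970). Every FLI sample, at 10.4 to 15.4 CPM, lay above every control, at 1.22 to 10.3 CPM. Such a separation of the groups, in either direction, was seen in 1.45% of tested genes. MSX2, the tested endometrial marker of highest mean, was not low, with 43.1 to 129 CPM in FLI and 41.8 to 73.8 CPM in control (limma adjusted p = 0.970).

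GATA4, HNF4A, SOX17 and FOXA2 differed widely between samples of the control group and much less within the FLI group, and no difference between FLI and control passed the test. All 4 were highest in control 10 and next highest in control 20, and all 4 were lowest in control 3M. The 4 FLI samples lay between these extremes for each gene. Of the 8 genes, 4 were highest in control 10, as were 23.9% of all tested genes.

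GATA4, a zinc-finger factor of the hypoblast and of later endoderm and heart (ENSBTAG00000005425, ARS-UCD1.2 chr8:7642403-7695092, minus strand), had 34.1, 27.8, 29.6 and 43.0 CPM in FLI 20, 3M, 4M and 50, against 91.1, 52.1, 15.7 and 26.2 CPM in control 10, 20, 3M and 4M. The FLI samples lay inside the range of the controls, so the groups overlapped. The FLI mean was 33.6 ± 6.77 CPM and the control mean 46.3 ± 33.6 CPM (SD, n = 4 each). The log2 difference, FLI minus control on log2(CPM + 0.5), was -0.17 (SE 0.48, 95% interval -1.28 to 0.93, limma with Benjamini-Hochberg adjusted p = 0.975).

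HNF4A, a nuclear receptor that drives apolipoprotein genes in endoderm and liver (ENSBTAG00000012116, chr13:72825552-72853312, plus strand), had 38.5, 23.8, 30.9 and 44.2 CPM in FLI 20, 3M, 4M and 50, against 129, 70.5, 17.2 and 32.1 CPM in control 10, 20, 3M and 4M. Control 10 was 7.51-fold above control 3M, and every FLI sample lay between them. The FLI mean was 34.3 ± 8.89 CPM and the control mean 62.2 ± 49.9 CPM (SD, n = 4 each), a log2 difference of -0.50 (SE 0.56, interval -1.78 to 0.78, limma adjusted p = 0.970). Without control 10 the difference was -0.02.

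SOX17, a high-mobility-group factor of primitive and definitive endoderm (ENSBTAG00000005748, chr14:22229596-22232109, plus strand), had 21.0, 15.8, 18.7 and 24.5 CPM in FLI 20, 3M, 4M and 50, against 53.9, 38.7, 13.9 and 17.2 CPM in control 10, 20, 3M and 4M. The groups overlapped, with the 2 controls titled 10 and 20 above every FLI sample. The log2 difference was -0.42 (SE 0.41, interval -1.36 to 0.52, limma adjusted p = 0.970), and without control 10 it was -0.09.

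FOXA2, a forkhead factor that opens chromatin in endoderm (ENSBTAG00000012407, chr13:41542504-41546955, minus strand), was the least abundant of the 4, with 5.91, 6.93, 7.89 and 9.53 CPM in FLI 20, 3M, 4M and 50, against 22.9, 12.9, 4.50 and 5.61 CPM in control 10, 20, 3M and 4M. Here too the groups overlapped and controls 10 and 20 were the highest samples. The log2 difference was -0.31 (SE 0.47, interval -1.38 to 0.75, limma adjusted p = 0.970). Leaving out control 10 turned the direction for FOXA2 and GATA4, to 0.10 and 0.25.

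**Figure D1:**
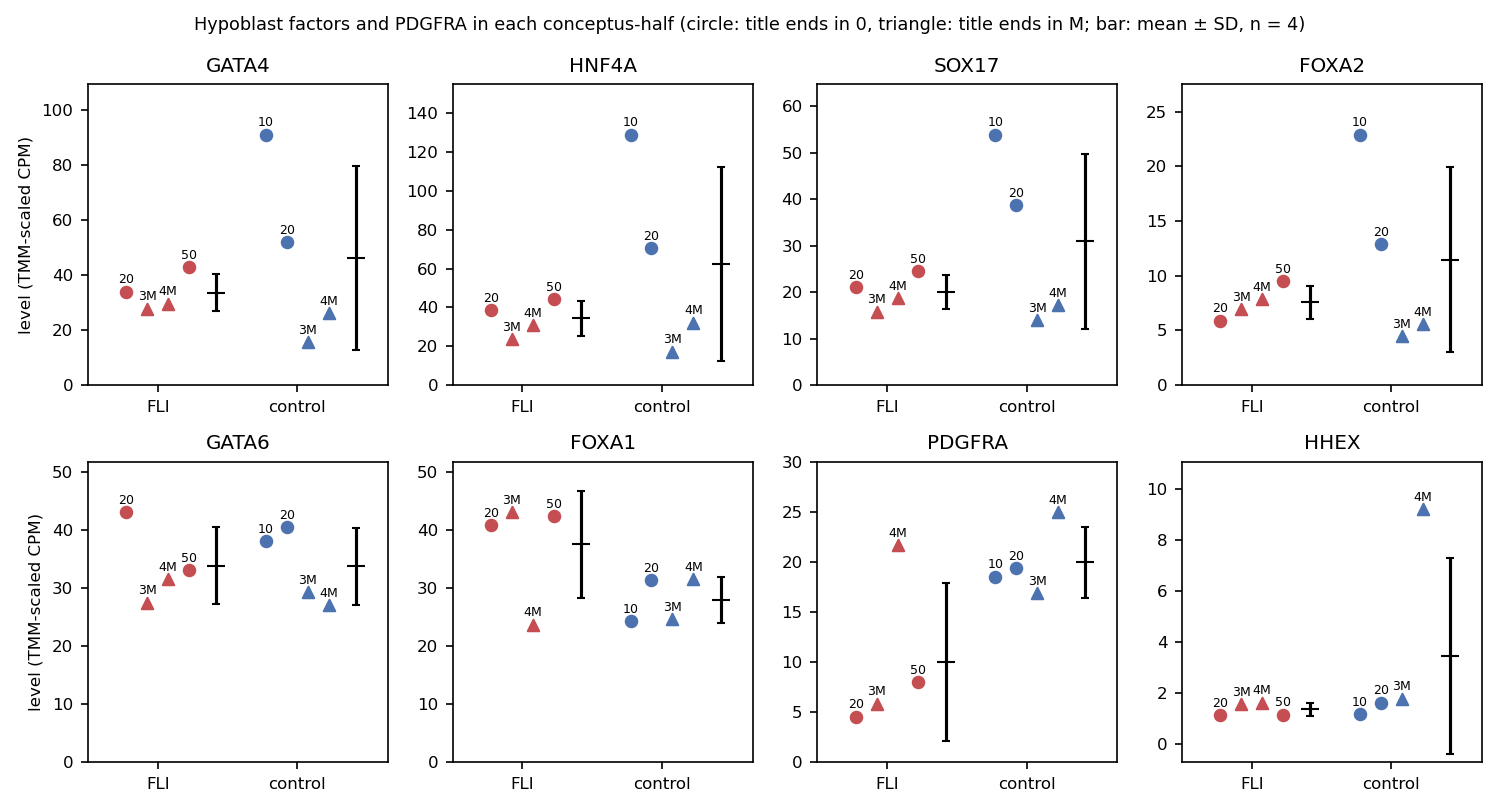
Level of each gene in CPM (vertical axis, linear) in the 4 FLI samples (red, left) and the 4 control samples (blue, right), labelled by title, with circles for titles ending in 0, triangles for titles ending in M, and the mean ± SD of each group as a bar. GATA4, HNF4A, SOX17 and FOXA2 were highest in control 10 and control 20, 3 FLI samples had less PDGFRA than every control, and control 4M stood apart for HHEX.

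The levels of these 4 factors were correlated from sample to sample. Among the 28 pairs of the 8 genes, 6 were correlated over the 8 samples (Pearson's r on log2(CPM + 0.5), exact permutation over 40320 orders, Benjamini-Hochberg adjusted p under 0.05 over the 28 pairs), and these were the 6 pairs within GATA4, HNF4A, SOX17 and FOXA2. Their r was 0.94 to 0.98, with adjusted exact permutation p between 0.000694 and 0.00556 (n = 8). Spearman's rho was 0.81 to 0.98, and 5 of the 6 passed by rho, with FOXA2 and HNF4A missing (adjusted exact permutation p = 0.102). Without the 2 samples farthest from the median, r was 0.68 (FOXA2 and HNF4A) to 0.96. Deviations from the FLI and control means gave r of 0.94 to 0.99, so the correlation did not rest on the difference between the group means. The controls, with the wider spread, weigh most in these values, and r within FLI alone was not computed. Within FLI, FOXA2 was lowest in FLI 20 (5.91 CPM), where GATA4 (34.1 CPM), HNF4A (38.5 CPM) and SOX17 (21.0 CPM) were below FLI 50 alone. Without control 10, r was 0.85 to 0.97 and 5 of the 6 pairs passed, FOXA2 and HNF4A again missing (adjusted exact permutation p = 0.0806, n = 7). Such profiles were not rare: over the 8 samples the share of all tested genes with an r over 0.9 was 2.73% for FOXA2 to 4.66% for HNF4A. The share of pairs that would pass among all tested genes was not examined.

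**Figure D2:**
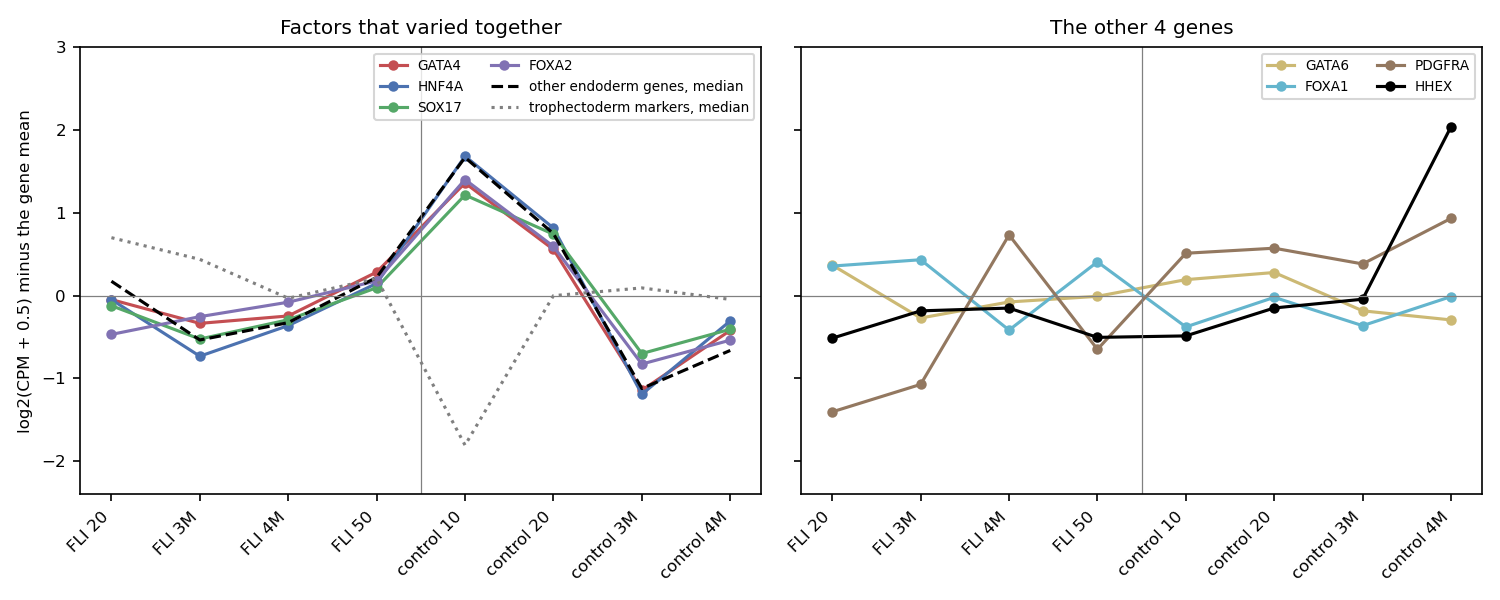
Profile of each gene over the 8 samples, as log2(CPM + 0.5) minus the mean of the gene (vertical axis), with FLI samples left of the grey line and controls right of it. Left, the 4 factors that varied together, with the medians of 34 other endoderm genes (dashed) and 20 trophectoderm markers (dotted), which were highest and lowest in control 10; right, the other 4 genes, which followed other profiles.

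Many other genes of hypoblast and yolk sac endoderm were also highest in control 10. Of a list of 44 such genes, 43 were in the table and 34 were tested. This list and the other gene lists were drawn up with earlier results of these data known, so their shares are a description. In control 10, 25 of the 34 (73.5%) had their highest value, against 23.9% of all tested genes, and 3 had their lowest. LRP2 and DAB2, an uptake receptor and its adaptor, named after their values were seen, were among those 3, with 2227 to 5265 CPM of LRP2 in FLI and 1276 CPM in control 10, and 450.2 to 888 CPM of DAB2 in FLI and 124 CPM in control 10. FN1, the fibronectin of the extracellular matrix, had 9865, 5347, 5991 and 15008 CPM in FLI 20, 3M, 4M and 50, against 31976, 15489, 3408 and 5450 CPM in control 10, 20, 3M and 4M. The summed level of the list was 14352 to 31735 CPM in FLI samples and 11193 to 61620 CPM in controls. Between FLI and control 11 of the 34 were higher and 23 lower, with a median log2 difference of -0.20, where all tested genes had 6039 higher, 5858 lower and a median of 0.00. By limma 0 of the 34 passed at an adjusted p under 0.05, and 1, the WNT agonist RSPO3, had an unadjusted p under 0.05 (2.71 ± 1.98 CPM in FLI, 6.76 ± 2.42 CPM in control, SD, n = 4 each, adjusted p = 0.970). HNF4G, a paralog of HNF4A, had 1.16 ± 0.400 CPM in FLI and 2.25 ± 1.23 CPM in control (log2 difference -0.66, limma adjusted p = 0.970). AFP, the alpha-fetoprotein of yolk sac endoderm, was named after its values were seen: it had 4.76 and 10.6 CPM in control 10 and 20 and at most 0.016 CPM in each of the other 6 samples.

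Control 10 also stood apart in markers of other cell types. All 20 trophectoderm markers on the list were tested, and 13 of them (65%) were lowest in control 10, against 28.3% of all tested genes. Their summed level was 32970 to 81105 CPM in FLI samples and 23120 to 56029 CPM in controls, the lowest being control 10. CDX2, a factor of the trophectoderm, had 27.2, 46.8, 86.3 and 38.3 CPM in FLI 20, 3M, 4M and 50, against 6.92, 35.9, 84.1 and 94.9 CPM in control 10, 20, 3M and 4M. Between FLI and control 18 of the 20 were higher and 2 lower, with a median log2 difference of 0.80, where 50.8% of all tested genes were higher. By limma 0 passed at an adjusted p under 0.05 and 4 of the 20 at an unadjusted p under 0.05, where 2.84% of all tested genes did. PAG2, which encodes a secreted glycoprotein of trophoblast cells, had 1789.99, 2519, 698 and 2062 CPM in FLI 20, 3M, 4M and 50, against 183, 389, 675 and 364 CPM in control 10, 20, 3M and 4M (limma adjusted p = 0.970). PTGS2, an enzyme of prostaglandin synthesis, averaged 3651 ± 1850.4 CPM in FLI and 1044 ± 1380.02 CPM in control (SD, n = 4 each, limma adjusted p = 0.970). Control 10 was also highest for COL1A1, a collagen of mesenchyme, at 102 CPM, against 4.61 to 23.9 CPM in FLI samples. The median of the trophectoderm markers was taken on log2(CPM + 0.5) centred on each gene. It was -1.81, -0.002, 0.09 and -0.05 in control 10, 20, 3M and 4M. In FLI 20, 3M, 4M and 50 it was 0.70, 0.44, -0.03 and 0.21. The part of cell composition in the profile of the 4 factors was not tested.

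GATA6 varied little. This zinc-finger factor (ENSBTAG00000005734, chr24:34163203-34192624, minus strand) had 43.1, 27.5, 31.5 and 33.1 CPM in FLI 20, 3M, 4M and 50, against 38.1, 40.5, 29.3 and 27.1 CPM in control 10, 20, 3M and 4M. The highest value was 1.59-fold the lowest, and samples of both groups covered the same range. The means were 33.8 ± 6.63 CPM in FLI and 33.7 ± 6.57 CPM in control (SD, n = 4 each), a log2 difference of 0.00 (SE 0.19, interval -0.43 to 0.44, limma adjusted p = 0.998). Its r with GATA4, HNF4A, SOX17 and FOXA2 was 0.51 to 0.69 over the 8 samples, and none of these pairs passed (lowest adjusted exact permutation p = 0.211). Without FLI 20, the sample with the most GATA6, GATA6 passed with SOX17 (r = 0.91, adjusted exact permutation p = 0.0278, n = 7) and with FOXA2 (r = 0.85, adjusted exact permutation p = 0.0486, n = 7).

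PDGFRA (ENSBTAG00000007173, chr6:69723655-69771549, plus strand) showed the widest separation of FLI from control among the 8, and it did not pass the test. It had 4.55, 5.86, 21.7 and 8.02 CPM in FLI 20, 3M, 4M and 50, against 18.5, 19.4, 16.9 and 25.003 CPM in control 10, 20, 3M and 4M. Of the FLI samples 3 lay below every control, and FLI 4M lay within the control range. The FLI mean was 10.03 ± 7.91 CPM and the control mean 19.96 ± 3.51 CPM (SD, n = 4 each). The log2 difference was -1.20 (SE 0.42, interval -2.17 to -0.23), with an unadjusted limma p of 0.0211 that ranked 91 of 11897 genes, and an adjusted p of 0.970. An exact permutation test over the 70 assignments of samples to groups gave p = 0.114 (two-sided, n = 4 each), where the smallest p it can give is 0.0286. Without FLI 4M the difference was -1.64 (SE 0.24, limma adjusted p = 0.409). The authors' deposited table gives PDGFRA a log2 fold change of -1.46, rank 33 by p and an adjusted p of 0.0693, one rank after the 32 of 15267 genes (0.21%) that it has under 0.05. None of the 8 genes is among those 32.

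Of 9 listed PDGF ligands, receptors and receptor partners 6 were in the table and 5 tested, with 2 higher and 3 lower, a median log2 difference of -0.03 and 0 at an unadjusted limma p under 0.05. PDGFB, a PDGF ligand, had 66.2, 17.2, 21.9 and 14.8 CPM in FLI 20, 3M, 4M and 50, against 4.51, 14.6, 15.2 and 14.3 CPM in control 10, 20, 3M and 4M (log2 difference 1.13, SE 0.54, limma adjusted p = 0.970). FLI 20 and FLI 4M were the highest and control 10 the lowest, and the other 5 samples lay between 14.3 and 17.2 CPM. NRP1, a co-receptor, had 1.05 ± 0.542 CPM in FLI and 2.84 ± 2.26 CPM in control, and PTPN11, the phosphatase SHP2 that binds active receptors, had 57.6 ± 13.8 CPM in FLI and 74.6 ± 16.8 CPM in control (SD, n = 4 each), neither passing (limma adjusted p = 0.970 for each). PDGFA, the ligand of the alpha receptor, was named after its values were seen and had 30.02 to 42.4 CPM in FLI and 21.5 to 53.7 CPM in control.

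Since PDGFRA is also a gene of mesoderm, the values of mesenchyme and streak markers stand beside it. Of 15 extraembryonic mesoderm and mesenchyme markers 14 were in the table and 4 tested, 2 higher and 2 lower, with summed levels of 33.2 to 77.9 CPM in FLI and 24.6 to 239 CPM in control. COL3A1 was below 1 CPM in all 8 samples, and COL1A2 was at most 0.0628 CPM in FLI samples, against 5.61, 1.36, 0.0597 and 0.172 CPM in control 10, 20, 3M and 4M. TBX20, the tested marker of smallest p, had 3.63, 3.67, 10.1 and 6.76 CPM in FLI 20, 3M, 4M and 50. Its controls 10, 20, 3M and 4M had 8.63, 6.65, 8.69 and 6.93 CPM (limma adjusted p = 0.970). As for PDGFRA, FLI 20 and 3M lay below every control and FLI 4M did not, but FLI 50 lay within the control range. BMP4, the tested marker of highest mean, had 15.4 to 24.6 CPM in FLI and 3.98 to 75.5 CPM in control. Of 11 streak, mesoderm and definitive endoderm markers 10 were in the table and 3 tested, all lower in FLI with a median log2 difference of -0.81 and 0 at an unadjusted limma p under 0.05. They summed to 2.43 to 9.12 CPM in FLI and 4.69 to 15.4 CPM in control. Within FLI their sum was highest in FLI 4M, the FLI sample with the most PDGFRA. The order did not hold elsewhere. FLI 3M had a higher sum than FLI 50 (6.76 against 2.43 CPM) and less PDGFRA (5.86 against 8.02 CPM). Among controls the sum was highest in control 20, at 15.4 CPM, and PDGFRA in control 4M, where the sum was 7.53 CPM. TBXT, the factor of the primitive streak, was listed at 0 in FLI 20, FLI 50 and control 3M, where 3 reads, the limit that a count of 0 allows, would be 0.0262, 0.0296 and 0.0224 CPM. POU5F1, a factor of the epiblast, had 1.42, 10.2, 17.4 and 1.01 CPM in FLI 20, 3M, 4M and 50, against 23.0, 32.7, 4.80 and 13.3 CPM in control 10, 20, 3M and 4M. Of 15 epiblast markers 9 were in the table, and all 7 tested were lower in FLI, with a median log2 difference of -0.65 and 0 at an unadjusted limma p under 0.05. The part of these cell types in the PDGFRA values was not tested.

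FOXA1 was higher in 3 of 4 FLI samples than in every control. This forkhead factor, a paralog of FOXA2 (ENSBTAG00000013888, chr21:47777670-47782907, minus strand), had 40.9, 43.2, 23.7 and 42.4 CPM in FLI 20, 3M, 4M and 50, against 24.4, 31.4, 24.7 and 31.6 CPM in control 10, 20, 3M and 4M. The fourth FLI sample, FLI 4M, was the lowest of all 8. The means were 37.6 ± 9.26 CPM in FLI and 28.0 ± 4.02 CPM in control (SD, n = 4 each), a log2 difference of 0.39 (SE 0.22, interval -0.10 to 0.88, limma adjusted p = 0.970; exact permutation p = 0.171, two-sided, n = 4 each). Without FLI 4M the difference was 0.59 (SE 0.15, limma adjusted p = 0.923). The 3 FLI samples low in PDGFRA were the 3 high in FOXA1, and FLI 4M sat with the controls for both. Among the 28 pairs that of FOXA1 and PDGFRA did not pass (adjusted exact permutation p = 0.109 by r and 0.268 by rho, n = 8). Because the samples fall into these separate clusters, no pooled r is read from it.

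**Figure D3:**
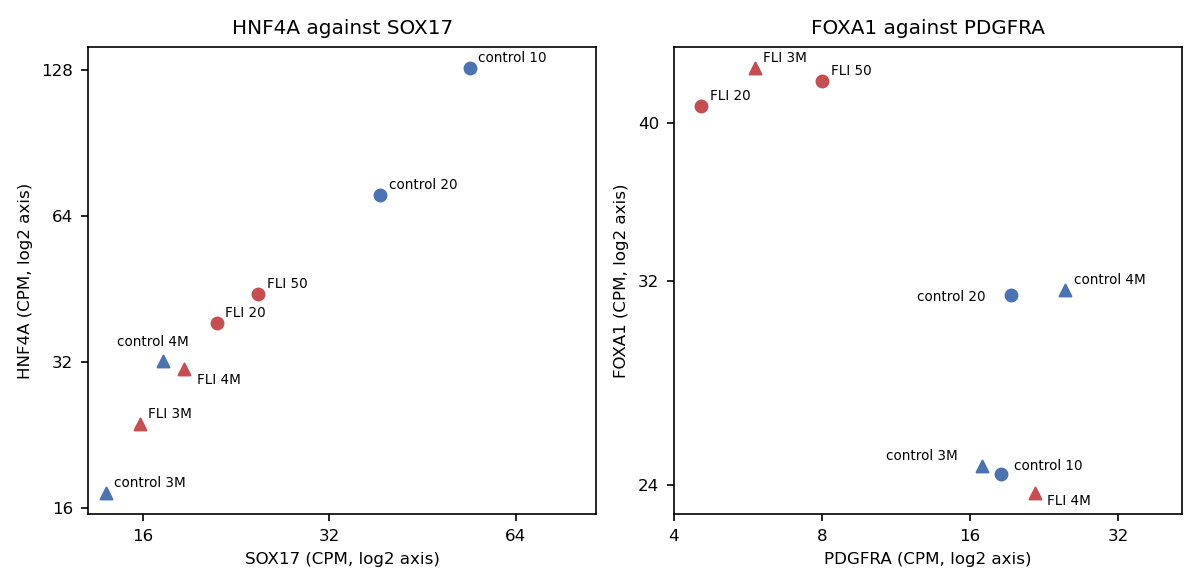
Left, HNF4A against SOX17, and right, FOXA1 against PDGFRA, in CPM on log2 axes, for FLI samples (red) and controls (blue), with circles for titles ending in 0 and triangles for titles ending in M. HNF4A and SOX17 followed one line through both groups, whereas FLI 20, 3M and 50 formed a cluster of high FOXA1 and low PDGFRA apart from the other 5 samples.

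HHEX, a homeobox factor of anterior endoderm and of endothelial and blood precursors (ENSBTAG00000014217, chr26:14075882-14081682, plus strand), was near 1 CPM in 7 of the 8 samples. It had 1.15, 1.58, 1.63 and 1.16 CPM in FLI 20, 3M, 4M and 50, against 1.19, 1.63, 1.79 and 9.20 CPM in control 10, 20, 3M and 4M. Only control 4M stood apart, at 1230 reads. The means were 1.38 ± 0.257 CPM in FLI and 3.45 ± 3.84 CPM in control (SD, n = 4 each), and the log2 difference of -0.68 (SE 0.52, limma adjusted p = 0.970) became -0.11 without control 4M. Of 11 vascular and endothelial markers 8 were in the table, and they summed to 7.28 to 13.2 CPM in FLI and 6.11 to 16.4 CPM in control, with control 4M the lowest of all 8 samples. Of 3 tested, 2 were higher and 1 lower in FLI. PECAM1, an adhesion molecule of endothelium, had 0.323 to 5.55 CPM in FLI and 0.299 to 3.28 CPM in control, with control 4M again the lowest, close to FLI 4M. Not every marker of the list was lowest in control 4M. ESAM had 2.21 CPM there and 1.13 CPM in FLI 3M. TIE1, named after its values were seen and not tested, had 1.14 CPM in control 4M, below control 10 alone (2.45 CPM).

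Across the 8 genes, 6 were lower and 2 higher in FLI than in control. None passed limma at an adjusted p under 0.05, as for all 11897 tested genes (0%). At an unadjusted p under 0.05 limma had 1 of the 8 (PDGFRA), where 2.84% of tested genes passed. For none of the 8 did the FLI samples all lie on one side of the controls, a separation seen in 1.45% of tested genes. With edgeR's quasi-likelihood test on the recovered reads 0 of the 8 passed as well, and with DESeq2 0 of the 7 to which it gave a p, HHEX having none. These tests gave larger log2 differences for some genes: by edgeR -0.48 for GATA4, -0.65 for SOX17, -0.63 for FOXA2, -0.88 for HNF4A and -1.31 for HHEX (adjusted p = 0.908 for each).

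**Figure D4:**
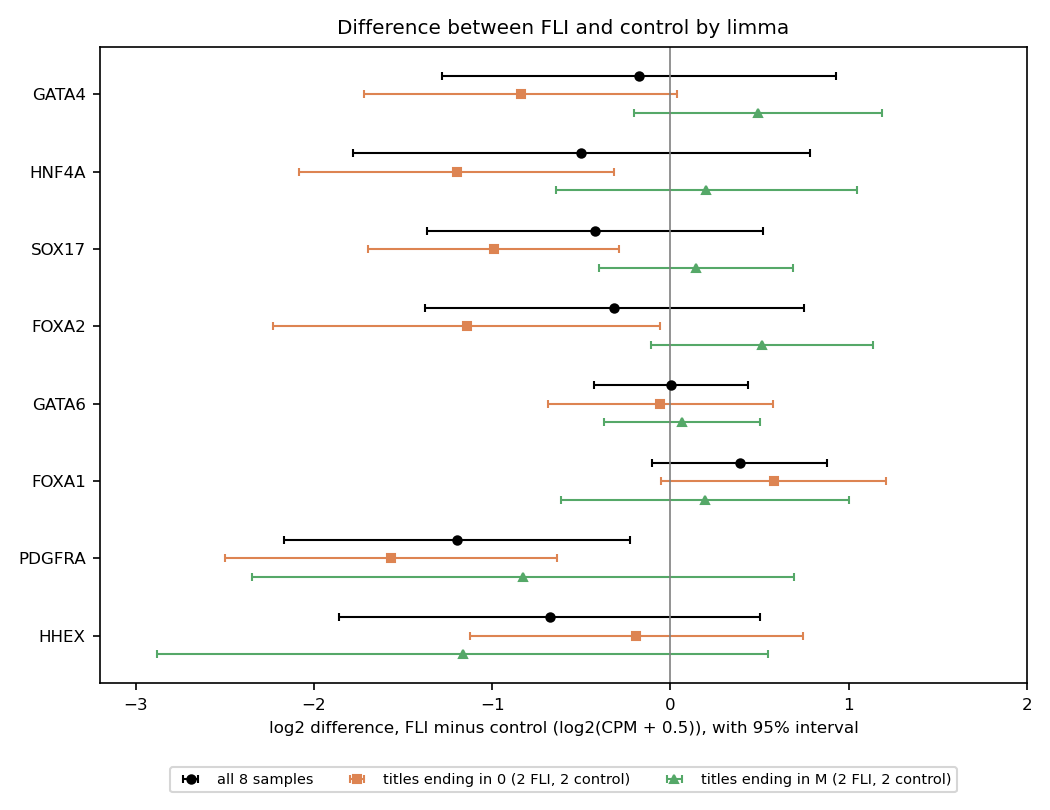
Difference between FLI and control for each gene, on log2(CPM + 0.5) with its 95% interval (horizontal axis), from all 8 samples (black), from titles ending in 0 (orange) and from titles ending in M (green). Over all samples PDGFRA alone has an interval that leaves out 0; GATA4, HNF4A, SOX17 and FOXA2 lay below 0 in titles ending in 0 and above 0 in titles ending in M.

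For most of the 8 genes, treatment went with less of the variation than the ending of the sample title did. The titles end in 0 (FLI 20 and 50, control 10 and 20) or in M (FLI 3M and 4M, control 3M and 4M), no label says what the ending marks, and the ending was examined after the values had been seen, so its shares are a description. Of the total sum of squares on the log2 scale, treatment held 1.56% for GATA4, 0.009% for GATA6, 11.7% for SOX17, 5.46% for FOXA2 and 8.74% for HNF4A. The title ending held 59.2% for GATA4, 76.2% for GATA6, 60.5% for SOX17, 40.1% for FOXA2 and 59.0% for HNF4A. PDGFRA and FOXA1 were the other way round, with 50.5% and 32.5% for treatment and 8.31% and 7.03% for the ending. HHEX had 18.4% for treatment and 27.5% for the ending. The median over the 8 genes was 10.2% for treatment, against 8.41% over all tested genes, and 49.6% for the ending, against 23.9%. The median for treatment was 3.99% without control 10, 4.42% without control 20, 5.32% without FLI 3M and 24.7% without control 3M.

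**Figure D5:**
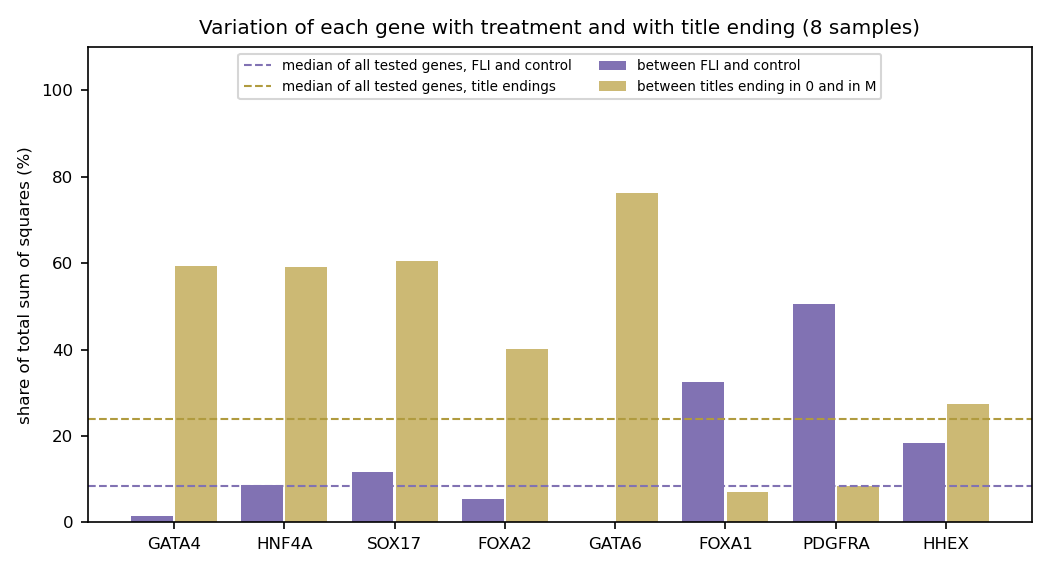
Share of the total sum of squares of log2(CPM + 0.5) over the 8 samples (vertical axis, percent) that lay between FLI and control (purple) and between titles ending in 0 and in M (yellow), with the medians of all tested genes as dashed lines. For PDGFRA and FOXA1 the share of treatment was the higher, and for the other 6 genes the share of the title ending.

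GATA4, GATA6, SOX17 and HNF4A were higher in all 4 samples with titles ending in 0 than in all 4 ending in M. Such a separation by ending, in either direction, was seen in 18.5% of tested genes, and with titles ending in 0 higher in 19 of the 34 other endoderm genes (55.9%), against 8.99% of all tested genes. GATA4 averaged 55.1 ± 25.1 CPM in titles ending in 0 and 24.8 ± 6.26 CPM in titles ending in M (SD, n = 4 each). The same averages were 70.5 ± 41.4 and 26.0 ± 6.93 CPM for HNF4A, 34.5 ± 15.0 and 16.4 ± 2.01 CPM for SOX17, and 38.7 ± 4.27 and 28.8 ± 2.03 CPM for GATA6.

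Within each ending the direction of the FLI difference was not the same. In titles ending in 0, with 2 FLI samples and 2 controls, the log2 difference was -0.84 for GATA4, -1.20 for HNF4A, -0.99 for SOX17 and -1.14 for FOXA2. In titles ending in M it was 0.49 for GATA4, 0.20 for HNF4A, 0.14 for SOX17 and 0.52 for FOXA2. PDGFRA was lower in FLI in both, at -1.57 in titles ending in 0 and -0.83 in titles ending in M, and FOXA1 was higher in both, at 0.58 and 0.20. The interaction of treatment and ending had unadjusted limma p-values of 0.0275 for GATA4, 0.0352 for HNF4A, 0.0122 for SOX17 and 0.0134 for FOXA2, and none passed adjustment over all tested genes (adjusted p = 0.750 to 0.798).

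The spread of the 8 genes within groups was wide beside most genes. The within-group SD on the log2 scale was 0.93 for HNF4A, 0.82 for HHEX, 0.80 for GATA4, 0.75 for FOXA2, 0.68 for PDGFRA and 0.67 for SOX17, between the percentiles 81.8 and 91.4 of all tested genes. FOXA1, at 0.32, and GATA6, at 0.27, were near the median of all tested genes, 0.31.

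Per kilobase of exon, GATA6 had the highest mean level in FLI and HNF4A in control. In CPM per kilobase, GATA6 had 19.0 ± 3.72 in FLI and 18.9 ± 3.69 in control, FOXA1 13.1 ± 3.24 in FLI and 9.79 ± 1.41 in control, and HNF4A 13.0 ± 3.37 in FLI and 23.6 ± 18.9 in control (SD, n = 4 each). SOX17 followed with 10.3 ± 1.90 in FLI and 15.9 ± 9.69 in control, and GATA4 with 8.85 ± 1.78 in FLI and 12.2 ± 8.84 in control. FOXA2 had 3.22 ± 0.654 in FLI and 4.88 ± 3.61 in control, PDGFRA 1.32 ± 1.04 in FLI and 2.62 ± 0.461 in control, and HHEX 0.810 ± 0.151 in FLI and 2.02 ± 2.25 in control. In FLI the mean ± SD of each neighbour in this order overlapped from GATA6 down to GATA4, FOXA2 lay below GATA4, PDGFRA below FOXA2, and PDGFRA and HHEX overlapped. In control the mean ± SD of every neighbouring pair overlapped.

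Relatives of the factors were examined next. Of 6 GATA cofactors and paralogs 4 were in the table and 3 tested, all higher in FLI, with 0 at an unadjusted limma p under 0.05. GATA3, a trophectoderm paralog, had 221, 142, 81.7 and 95.9 CPM in FLI 20, 3M, 4M and 50, against 11.7, 61.2, 98.6 and 89.4 CPM in control 10, 20, 3M and 4M. GATA2, another trophectoderm paralog, had 323 ± 122 CPM in FLI and 207 ± 129 CPM in control (SD, n = 4 each, limma adjusted p = 0.970). Both were lowest in control 10, where GATA4 was highest. Of 22 SOX, forkhead and HNF relatives and HHEX partners 17 were in the table and 10 tested, with 2 higher, 8 lower and 0 at an unadjusted limma p under 0.05. FOXH1, a forkhead partner of SMAD proteins, had 5.18 ± 1.04 CPM in FLI and 9.93 ± 7.54 CPM in control (SD, n = 4 each, limma adjusted p = 0.970). Of these 10, 7 were highest in control 10.

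Genes with the most similar profile over the 8 samples were found by r on log2(CPM + 0.5) among all tested genes with a symbol, as a description. GATA4 was closest to SLC7A7, FGF10 and RNF144A, SOX17 to RCN1, CMAS and SLC7A9, HNF4A to FSD1L, ADD3 and SEMA4G, and FOXA2 to KIF1A, GRP and LZTS3, all at an r of 0.99. GRP, a secreted peptide, had 1.19, 1.18, 2.92 and 5.31 CPM in FLI 20, 3M, 4M and 50, against 38.7, 13.7, 0.284 and 0.524 CPM in control 10, 20, 3M and 4M. Like FOXA2 it was highest in control 10 and next highest in control 20. Over 0.9 in r were 493 tested genes (4.14%) with GATA4, 495 (4.16%) with SOX17, 554 (4.66%) with HNF4A and 325 (2.73%) with FOXA2. Only 30 (0.25%) were over 0.9 with GATA6, 34 (0.29%) with PDGFRA, 25 (0.21%) with FOXA1 and 10 (0.084%) with HHEX. PDGFRA was closest to CYFIP2 (0.97), ZBTB9 (0.96) and DNAI4 (0.96). CYFIP2 had 0.437, 0.738, 2.77 and 0.869 CPM in FLI 20, 3M, 4M and 50, against 1.63, 2.21, 2.52 and 2.57 CPM in control 10, 20, 3M and 4M, again with FLI 4M among the controls. FOXA1 was closest to TM7SF3 (0.98), ATG4A (0.98) and BIRC3 (0.95), GATA6 to METTL22 (0.96), MAP1B (0.96) and FRZB (0.95), and HHEX to NRF1 (0.96), POGK (0.95) and TENT5A (0.93), the last 3 each highest in control 4M.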

How the data were processed

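Libraries of 8 samples were stranded and poly-A enriched, per the labels' protocols. Tools named, without versions, in the submitters' processing notes are HISAT2, featureCounts, edgeR and FastQC, with the build ARS-UCD1.2. The signal values deposited by the authors are CPM on TMM-scaled library totals, as the values show: 100% were whole multiples of 1 read (0.00646 to 0.00987 CPM) within a tolerance of 0.001, so whole reads were recovered. The lowest gene total was 112 reads over the 8 samples, which points to a filter before deposit. The authors' deposited comparison table gives a log2 fold change, a score and p-values per gene.

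The 8 genes and all lists were chosen with earlier results of these data known. Genes with at least 1 CPM in at least 4 samples (11897) were tested with limma 3.58.1 (R 4.3.3) on log2(CPM + 0.5) with a mean-variance trend, two-sided, over all 8 samples without covariates, with Benjamini-Hochberg adjustment over all genes and a threshold of 0.05. Named are the 8 genes, the 3 genes of highest r with each, and from each list the 2 of smallest p, the one of highest mean and the first 3 cell type markers; others are said to be named after their values were seen, and 1 gene under this rule is not reported here. Alternatives were edgeR 4.0.16 and DESeq2 1.42.0 on the recovered reads, other pseudocounts, no filter, library size alone, a replicate block, each title ending alone and leaving out each sample. The interaction with title ending was added after the data were seen. The steps were tested on simulated data. As a check of pairing, the residuals of the samples numbered 20, 3M and 4M in FLI and control had r of 0.133, 0.351 and 0.359. These count as possible pairing, which the main test did not use and the replicate block did. FLI 20 had a higher r with control 10, at 0.28, than with control 20. All other combinations of equal ending were over 0.1 too, so number and ending cannot be told apart.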

Additional observations from a re-analysis of the deposited data

Results flagged for a closer look

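FOXA1 in the FLI group had a sample far from the others: FLI 4M, at 23.7 CPM, was separated from the nearest FLI sample by a gap that was 0.884 of the range of the group. HHEX in the control group had control 4M at 9.20 CPM, with a gap of 0.924 of the range. Of 16 such checks over the 8 genes and both groups 2 were past Dixon's 95% critical value for 4 samples, and chance flags about 1 in 20 groups. In 2 genes every FLI sample lay on one side of the controls within each title ending, and on opposite sides in the endings. For GATA4 both FLI samples ending in 0 lay below both controls and both FLI samples ending in M above both controls, and the difference in titles ending in 0 minus that in titles ending in M was -1.33 on the log2 scale (SE 0.48, limma adjusted p = 0.774). For FOXA2 the same was seen, with -1.66 (SE 0.50, limma adjusted p = 0.763). Causes were not tested.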

How the results depend on the processing

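None of the 8 genes passed in any of the 17 alternatives run, except that DESeq2 gave HHEX no p, so HHEX was not tested there. Over all tested genes limma and edgeR's quasi-likelihood test called 0 genes, with and without these alternatives, and DESeq2 called 9, none of them among the 8. The replicate block on the 6 samples numbered 20, 3M and 4M changed no call; the difference of GATA4 reversed to 0.13 under it, and that of PDGFRA was -1.21 (limma adjusted p = 0.695). In titles ending in M the differences of GATA4 (0.49), SOX17 (0.14), FOXA2 (0.52) and HNF4A (0.20) reversed. GATA6, at 0.0045 over all samples, reversed with library size alone (-0.095), edgeR (-0.0052), DESeq2 (-0.017) and in titles ending in 0 (-0.056). Leaving out each sample in turn gave -0.58 to 0.25 for GATA4, -0.12 to 0.10 for GATA6 and -0.64 to 0.10 for FOXA2. DESeq2 gave -0.50 for GATA4, -0.66 for SOX17, -0.64 for FOXA2, -0.89 for HNF4A and -1.32 for HHEX, over 1.5 times the limma values, as did edgeR. PDGFRA stayed negative in every alternative, from -0.83 to -1.64. The count of correlated pairs was 5 to 8 with a sample left out and 6 under the other alternatives, and the median share of treatment was 3.99 to 24.7% with a sample left out and 14.2% with library size alone. Library size alone moved the median difference of all tested genes to -0.09, against 0.00 as deposited. The causes were not tested. Counting error was at most 9.21% of a level for the 8 genes.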

Other observations

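Some genes of endoderm and endothelium that were too low for the filter were seen mainly in control 10 and control 20, the samples with the most GATA4, HNF4A, SOX17 and FOXA2. KDR, a receptor for vascular endothelial growth factor, had 0.210 to 0.645 CPM in FLI samples, against 15.9, 7.02, 0.104 and 0.943 CPM in control 10, 20, 3M and 4M. CUBN, an uptake receptor of yolk sac endoderm, had at most 0.345 CPM in FLI samples, against 1.72, 1.67, 0.052 and 0.202 CPM in control 10, 20, 3M and 4M. Other genes of the endoderm and vascular lists below the filter were highest elsewhere. SERPINA1 and SOX7 were highest in FLI 20, at 4.21 and 0.655 CPM, and LEFTY2 in FLI 4M, at 0.803 CPM. SOX18 was highest in control 3M, at 2.07 CPM, and EGFL7 in FLI 3M, at 1.37 CPM. FLI 20 stood apart in another way, with 66.6 CPM of ALAS2, an enzyme of haem synthesis, where the other FLI samples had 0.553 to 2.75 CPM and the controls 1.51 to 4.06 CPM. The difference in ALAS2 did not pass (limma adjusted p = 0.971). KDR, CUBN, SERPINA1, SOX7, LEFTY2, SOX18 and EGFL7 were named after their values were seen and not tested.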
